A study of Homo sapiens with 9 samples.

Results

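Integrin chains are described here: 6 alpha chains (ITGAV, ITGA2, ITGA3, ITGA4, ITGA5 and ITGA6) and 4 beta chains (ITGB1, ITGB3, ITGB5 and ITGB8), taken as the rows of the deposited files that carry exactly those gene symbols. These are 10 of the 60420 gene IDs in each file, and all 10 were among the 13825 genes that could be tested. ITGB3 also has a second ID that is listed at 0 in all 9 libraries, so its values come from ENSG00000259207.7. The cells were A375, an established human melanoma cell line, and RNA was taken on day 7 after SPANX, a group of cancer-testis antigens, had been knocked down. The 9 libraries form 3 groups of 3: EV control, SPANX KD 86 and SPANX KD 87, the last 2 being knockdowns made with different constructs and called construct 86 and construct 87 below. All groups share the cell line and the time point, no drug or other treatment is named for any of them, and the labels do not say whether the replicates were separate cultures. The p-values below therefore rest on how far these libraries lay apart, and that spread may be technical.

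Integrins are cell surface receptors made of 1 alpha and 1 beta chain, and they tie the cytoskeleton to the extracellular matrix or to neighbouring cells. The chain that is paired decides the ligand: ITGB1 pairs with many alpha chains to bind collagens, laminins and fibronectin, whereas ITGB3, ITGB5 and ITGB8 pair with ITGAV to bind vitronectin, fibronectin or latent TGF-beta. In melanoma, integrins made of ITGAV and ITGB3 are known for the step from growth within the epidermis to invasion of the dermis.

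Promoter sequences are shown for ITGAV, which rose with both constructs, and for ITGB1, the shared partner chain, which rose with construct 86, so that the upstream regions of an alpha and a beta chain can be read side by side. They come from RefSeq (build GRCh38.p14), in which 8 of the 10 members matched (all but ITGA3 and ITGB3), and run 5′ to 3′ within the 250 bases before the RefSeq start, without bases that GENCODE v29 counts as exon. The stretches lie at chr2:186589806-186590055 on the plus strand (ITGAV) and chr10:32958233-32958480 on the minus strand (ITGB1), each within 100 bases of the start of a principal GENCODE transcript. Capitals mark matches, on either strand, to a GC box (GGGCGG), a TEAD site (GGAATG) or an ETS site (CCGGAA).
ITGAV: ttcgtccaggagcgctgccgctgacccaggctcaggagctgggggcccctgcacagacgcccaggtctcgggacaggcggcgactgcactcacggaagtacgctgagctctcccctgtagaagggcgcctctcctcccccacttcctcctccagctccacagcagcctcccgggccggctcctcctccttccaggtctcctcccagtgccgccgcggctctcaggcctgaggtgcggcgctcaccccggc
ITGB1: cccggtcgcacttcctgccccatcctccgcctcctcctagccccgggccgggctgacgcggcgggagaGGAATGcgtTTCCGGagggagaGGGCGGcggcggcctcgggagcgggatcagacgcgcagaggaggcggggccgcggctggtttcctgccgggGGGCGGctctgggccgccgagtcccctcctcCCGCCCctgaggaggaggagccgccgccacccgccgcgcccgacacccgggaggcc
Of the other matched members, ITGA4, ITGA5 and ITGB8 have no principal GENCODE start within 100 bases of the RefSeq start, and the bases after the ITGB5 start were not found at the 5′ end of a GENCODE transcript, so their windows may not be the promoters in use. Over the full 250 bases the GC box was found in 6 of the 8 member promoters (not in ITGAV or ITGA4) and in 69.0% of the 9598 promoters of tested genes. The CCAAT box was in 1 of 8 (ITGB8) against 35.7% of all promoters. No member promoter held an AP-1 site (TGACTCA, 2.60% of all), a CRE (TGACGTCA, 2.93%), an E-box (CACGTG, 8.85%) or a TATA box (TATAAA, 5% of all). A TEAD site (GGAATG) was in 2 of 8 (ITGA5 and ITGB1) against 9.49% of all promoters, and an ETS site (CCGGAA) in 2 of 8 (ITGA6 and ITGB1) against 25.6%. No motif in this set contains another, and a match is a description of the sequence only. The GC content of the 8 promoters was 70.0% to 78.4%, beside a median of 65.4% (quartiles 58.0% and 72.4%) over all.

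Reads came from the 3' ends of transcripts (QuantSeq 3' mRNA-Seq), with 11310656 to 15564093 reads recovered per library. Replicates correlated across genes with r = 0.938 to 0.966 in EV, 0.963 to 0.979 with construct 86 and 0.959 to 0.979 with construct 87. The targeted transcripts were lower with both constructs: SPANXC by 5.78-fold (limma, adjusted p = 0.00372) and 12.2-fold (adjusted p = 0.00335) with constructs 86 and 87. SPANXD stood at 27.5 to 102.8 normalised reads in EV, at 0 to 0.974 with construct 86 and at 5.28 to 7.16 with construct 87 (limma adjusted p = 0.000145 and 0.00804), levels too low for a fold that does not depend on the pseudocount. With the length trend removed the SPANXC log2 difference with construct 86 was -1.79 in place of -2.53. Of 16 melanoma and melanocyte markers, 12 were tested, and the pigment cell genes MLANA, TYR, DCT and TYRP1 were listed at 0 in every library. EV replicate 2 stood apart from the other EV libraries: it was the highest EV library in 9 of the 10 members (all but ITGB8). Replicate 2 was also the highest of its group in 7 of the 10 members with each construct. Results that turn on EV replicate 2 are given with and without it. Leaving it out takes a high library from EV alone, while replicate 2 of the knockdowns stays. For those 9 members rises against EV then become larger, as for ITGA6 with construct 86 (log2 0.73 to 1.08).

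**Figure D1:**
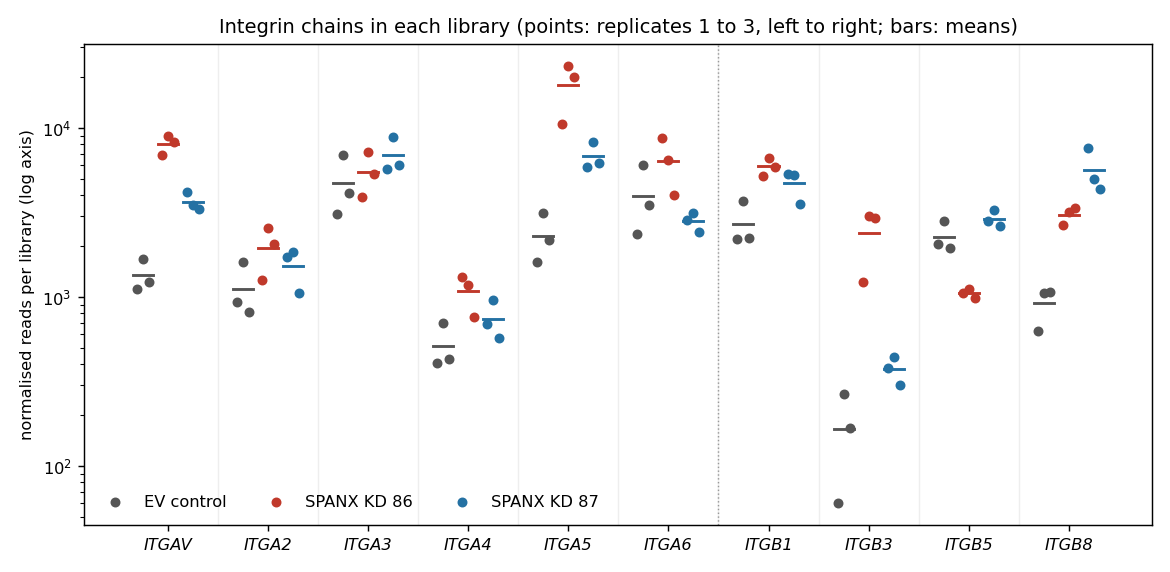
Normalised reads of each integrin chain in the 9 libraries on a log axis, with 1 point per library and a bar at each group mean. The construct 86 libraries (red) lie above all EV libraries (grey) for ITGAV, ITGA4, ITGA5, ITGB1, ITGB3 and ITGB8 and below them for ITGB5.

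With construct 86, 6 members rose (ITGAV, ITGA4, ITGA5, ITGB1, ITGB3 and ITGB8), ITGB5 fell, and ITGA2, ITGA3 and ITGA6 did not pass the test. A call means an adjusted p under 0.05 in limma, adjusted by Benjamini-Hochberg over all tested genes. In that comparison 35.6% of all tested genes were called, 18.0% higher and 17.6% lower. The members' median change was 1.13 on the log2 scale, beside -0.04 over all tested genes. The construct 86 libraries did not overlap the EV libraries in 7 of 10 members, against 45.3% of all genes. With construct 87, 3 members rose (ITGAV, ITGA5 and ITGB8) and 0 fell, where 10.3% of all genes were called, 5.91% higher and 4.43% lower. The median change over the 10 members was 0.71, beside -0.00 over all genes, and 4 of 10 members did not overlap EV, against 29.2% of all genes. The same 3 EV libraries serve both comparisons. With the replicate number as a block in the model, 9 members were called with construct 86 (8 higher, 1 lower) and 7 with construct 87 (7 higher), while the share of all genes called went up to 55.3% and 31.0%. Without EV replicate 2 the counts were also 9 with construct 86 and were 6 with construct 87, where 43.5% and 18.5% of all genes were called. All these are levels of RNA in bulk cultures, where fewer cells of a kind and less RNA per cell cannot be told apart.

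**Figure D2:**
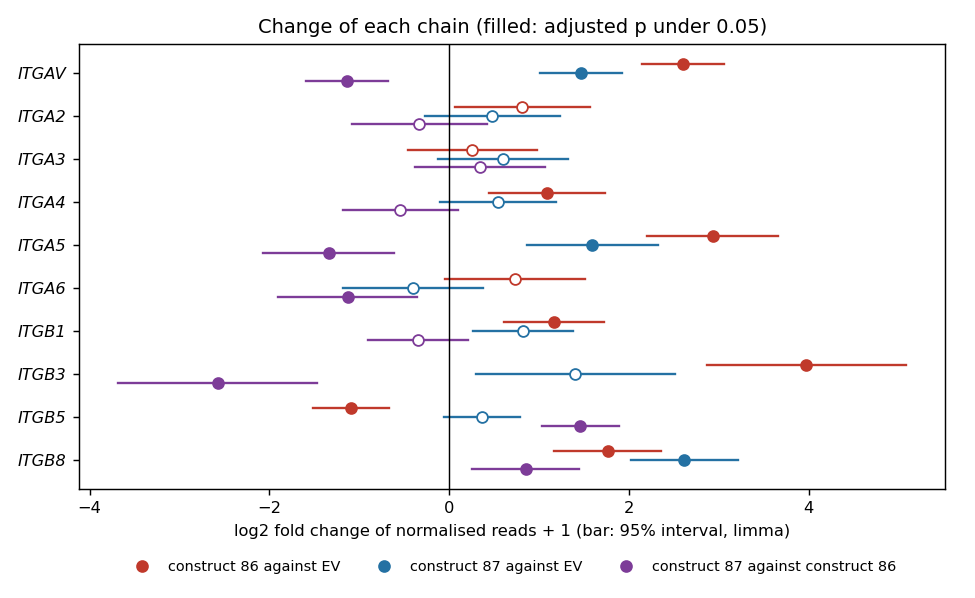
Log2 fold change of each chain in the 3 comparisons, with 95% intervals from limma. Filled points have an adjusted p under 0.05. ITGB3 has the highest change with construct 86 (3.97) and ITGB8 with construct 87 (2.61).

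Among the 6 alpha members, ITGAV and ITGA5 recognise the RGD motif of ligands such as fibronectin, and they were the alpha members that rose with both constructs. ITGAV (ENSG00000138448.11) stood at 1115, 1679 and 1226 normalised reads in EV replicates 1 to 3. Construct 86 brought 6943, 8977 and 8240.3 in the same replicate order, and construct 87 gave 4181, 3490.0 and 3322. None of the groups overlapped, and the construct 87 libraries lay between the other groups. The means were 1339.7 ± 299, 8053 ± 1029.9 and 3665 ± 455 (SD, n = 3 each), a rise of 6.07-fold with construct 86 (log2 2.60 ± 0.21 SE, limma adjusted p = 5.14e-05) and of 2.76-fold with construct 87 (log2 1.47 ± 0.21, adjusted p = 0.00335). Both calls held without any single library.

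ITGA5 (ENSG00000161638.10), which pairs with ITGB1 as the fibronectin receptor, was at 1604, 3132 and 2176 normalised reads in EV, 10511, 23276 and 19899 under construct 86 and 5888, 8245 and 6183 under construct 87. Again the groups did not overlap, although construct 86 replicate 1 was lower than its partners by a wide margin. The rise with construct 86 was 7.63-fold, from 2304 ± 772 to 17895 ± 6614 (log2 2.93 ± 0.33 SE, limma adjusted p = 0.000206). With construct 87 the mean was 6772 ± 1284, a rise of 3.02-fold (log2 1.59 ± 0.33, adjusted p = 0.0148). Leaving out EV replicate 1, construct 87 replicate 1 or construct 87 replicate 2 ended that second call (limma adjusted p = 0.0698, 0.0538 and 0.0604).

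ITGA4 (ENSG00000115232.13) binds VCAM1 on endothelium as well as fibronectin, and it was the least abundant alpha member in each group. Its normalised reads were 407, 699.7 and 430.2 in EV, 1309, 1177 and 764 with construct 86, and 691, 961 and 572 with construct 87. The construct 86 libraries cleared the highest EV library, replicate 2, by a small margin, and the construct 87 libraries overlapped EV. It rose 2.12-fold with construct 86 (log2 1.09 ± 0.29 SE, limma adjusted p = 0.0154), a call lost without EV replicate 1 (adjusted p = 0.0638), EV replicate 3 (0.0513), construct 86 replicate 1 (0.0566) or construct 86 replicate 2 (0.0598). With construct 87 its change was 0.54 ± 0.29 on the log2 scale (adjusted p = 0.257), which became a call with the replicate block (adjusted p = 0.0436).

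ITGA2, ITGA3 and ITGA6, which with ITGB1 bind collagen (ITGA2) and laminins (ITGA3 and ITGA6), did not pass the test in either comparison with EV. ITGA3 (ENSG00000005884.17), the most abundant member in EV, was at 3083, 6917 and 4125 normalised reads in EV, 3911, 7177 and 5367 under construct 86 and 5727, 8861 and 6068 under construct 87. All 3 groups overlapped, and replicate 2 was the highest library of each. Its log2 change was 0.26 with construct 86 (95% interval -0.46 to 0.98, limma adjusted p = 0.562) and 0.60 with construct 87 (-0.12 to 1.32, adjusted p = 0.262). The value with construct 86 was -0.01 without EV replicate 1, and that with construct 87 became a call with the replicate block (adjusted p = 0.0136) and without EV replicate 2 (log2 0.92, adjusted p = 0.0487).

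ITGA6 (ENSG00000091409.14), the laminin receptor chain that also pairs with ITGB4, had 2372, 6013 and 3506 normalised reads in EV, 8708, 6482 and 4030.0 with construct 86, and 2842, 3134 and 2429 with construct 87. Its EV libraries overlapped both knockdowns, while the knockdown groups did not overlap each other. The log2 change was 0.73 with construct 86 (-0.05 to 1.51, limma adjusted p = 0.129) and -0.40 with construct 87 (-1.18 to 0.37, adjusted p = 0.490). The former became a call with the replicate block (adjusted p = 0.0450), though not with the block and the length trend removed together, and without EV replicate 2 (log2 1.08, adjusted p = 0.0159).

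ITGA2 (ENSG00000164171.10), the collagen receptor chain, stood at 936, 1612 and 809 normalised reads in EV, 1258, 2571 and 2045 under construct 86 and 1711, 1838 and 1049 under construct 87. EV replicate 2 lay inside both knockdown ranges. Its log2 changes of 0.81 (0.06 to 1.56, limma adjusted p = 0.0846) and 0.48 (-0.27 to 1.23, adjusted p = 0.393) were not called. With construct 86 the call was made with the replicate block (adjusted p = 0.00962), without EV replicate 2 (adjusted p = 0.0172) and without construct 86 replicate 1 (adjusted p = 0.0387), but not with the block and the length trend removed together.

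ITGB1 (ENSG00000150093.18), the shared partner of most alpha chains, had 2207, 3669 and 2228 normalised reads in EV, 5207, 6656 and 5873 with construct 86, and 5360.4, 5229 and 3536 with construct 87. All construct 86 libraries were above EV, and construct 87 replicate 3 alone of its group fell below EV replicate 2. The rise with construct 86 was 2.24-fold (log2 1.16 ± 0.25 SE, limma adjusted p = 0.00557). With construct 87 the log2 change of 0.82 ± 0.25 missed the threshold (adjusted p = 0.0647) and passed it with the replicate block (adjusted p = 0.00709), with the length trend removed (0.0345), with quantile normalisation (0.0452), without EV replicate 2 (0.0123) and without construct 87 replicate 3 (0.0405). Its processed pseudogene ITGB1P1 averaged 12.6 normalised reads in EV and at most 22.5 in a knockdown group and was not called; reads that fit both copies were not examined.

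ITGB3 (ENSG00000259207.7), which with ITGAV forms the vitronectin receptor, was the least abundant member in EV and changed by the largest factor of the 10 with construct 86. It stood at 60.3, 268 and 167 normalised reads in EV, 1217, 2994 and 2939 under construct 86 and 381, 439 and 302 under construct 87. No groups overlapped, and the EV libraries varied among themselves, relative to their mean, more than those of any other member. From 165 ± 104 it rose to 2383 ± 1010.3 with construct 86, by 15.7-fold (log2 3.97 ± 0.50 SE, limma adjusted p = 0.000356). EV replicate 1, the lowest library, carried part of that value: without it the log2 change was 3.38 (adjusted p = 0.00119). With construct 87 the mean was 374 ± 68.8, a log2 difference of 1.40 ± 0.50 that was not called (adjusted p = 0.0989) but was with the replicate block (adjusted p = 0.00769) and without EV replicate 2 (log2 1.87, adjusted p = 0.0210).

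ITGB5 (ENSG00000082781.11), another partner of ITGAV and a vitronectin receptor chain, was the member that fell. Its normalised reads were 2049, 2823 and 1937 in EV, 1049, 1121 and 983 with construct 86, and 2810.2, 3249.8 and 2639 with construct 87. The construct 86 libraries lay close together and below every other library, and construct 87 overlapped EV. The mean dropped 2.13-fold with construct 86, from 2269.7 ± 482 to 1051 ± 68.8 (log2 -1.09 ± 0.19 SE, limma adjusted p = 0.00196), and was 2899.6 ± 315 with construct 87 (log2 0.37, 95% interval -0.06 to 0.79, adjusted p = 0.244).

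ITGB8 (ENSG00000105855.9), which pairs only with ITGAV and binds latent TGF-beta, was at 630.0, 1059.7 and 1069 normalised reads in EV, 2653, 3158 and 3351 under construct 86 and 7607.5, 4979 and 4346 under construct 87. No groups overlapped, and the construct 87 libraries were the highest, where for ITGAV those of construct 86 were. The rise was 3.40-fold with construct 86 (log2 1.76 ± 0.27 SE, limma adjusted p = 0.00096) and 6.13-fold with construct 87 (log2 2.61 ± 0.27, adjusted p = 0.000859). Both calls held without any single library.

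Tested directly, 6 of the 10 members differed between the constructs: ITGAV, ITGA5, ITGA6 and ITGB3 were lower with construct 87 than with construct 86, and ITGB5 and ITGB8 were higher. In this comparison 25.6% of all tested genes were called, 12.7% higher and 12.9% lower, and 6 of 10 members had libraries that did not overlap, against 45.3% of all genes. The members' median difference was -0.44 on the log2 scale, beside 0.02 over all genes. ITGB3 was 5.95-fold lower (log2 -2.57 ± 0.50 SE, limma adjusted p = 0.00425) and ITGAV 2.20-fold lower (log2 -1.13 ± 0.21, adjusted p = 0.00313). ITGB5 was 2.75-fold higher (log2 1.46 ± 0.19, adjusted p = 0.000606). These 3 calls held without any single library. The ITGA5 difference, -1.34 ± 0.33 (adjusted p = 0.0137), was lost without construct 86 replicate 2 (adjusted p = 0.0597) or construct 87 replicate 1 (adjusted p = 0.0536). Those of ITGA6 (-1.13 ± 0.35, adjusted p = 0.0375) and ITGB8 (0.85 ± 0.27, adjusted p = 0.0398) were near the threshold, and both were lost without the variance trend (adjusted p = 0.0508 and 0.0549). ITGA6 lost its call without any of 5 knockdown libraries (all but construct 86 replicate 3), the highest adjusted p being 0.138 without construct 86 replicate 1, and ITGB8 without any of 5 (all but construct 87 replicate 3), the highest being 0.147 without construct 87 replicate 1. For ITGA2, ITGA3, ITGA4 and ITGB1 the 95% intervals of the log2 difference were -1.08 to 0.42, -0.38 to 1.07, -1.19 to 0.10 and -0.90 to 0.21, so differences of up to about those bounds were not resolved. With the replicate block ITGA4 was called lower with construct 87 (adjusted p = 0.0326), where 44.1% of all genes were called, and with the length trend removed as well ITGA3 was called higher (adjusted p = 0.00732).

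Within each group the chains can be put in order, since a 3' read count is not scaled by transcript length; how well each 3' end was captured was not tested. In EV the normalised reads ran from ITGA3 (4709 ± 1983) through ITGA6 (3964 ± 1863), ITGB1 (2701 ± 838), ITGA5 (2304 ± 772) and ITGB5 (2269.7 ± 482) to ITGAV (1339.7 ± 299), ITGA2 (1119 ± 431), ITGB8 (919.7 ± 251), ITGA4 (512 ± 163) and ITGB3 (165 ± 104). Neighbours in that order overlapped in their libraries except at ITGB5 to ITGAV and at ITGA4 to ITGB3. With construct 86 ITGA5 led at 17895 ± 6614, clear of ITGAV at 8053 ± 1029.9, and ITGB5 came last at 1051 ± 68.8, overlapping ITGA4 at 1083 ± 284. With construct 87 the top 4 were ITGA3 (6885 ± 1719.6), ITGA5 (6772 ± 1284), ITGB8 (5644 ± 1729) and ITGB1 (4709 ± 1017), each overlapping the next, and ITGB3 was again last at 374 ± 68.8.

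Shares of the summed member reads within a library do not depend on how libraries were scaled. Among the 6 alpha members ITGA5 took 16.7% ± 1.06 in EV, 42.8% ± 9.26 with construct 86 and 30.2% ± 1.92 with construct 87 (SD over 3 libraries), while ITGA6 took 27.8% ± 2.61, 16.6% ± 8.89 and 12.6% ± 0.86. ITGA3 went from 33.5% ± 1.05 in EV to 13.2% ± 1.24 with construct 86 and was 30.5% ± 3.11 with construct 87. A smaller share need not mean a lower level. With constructs 86 and 87 the log2 changes were 0.26 and 0.60 for ITGA3 and 0.73 and -0.40 for ITGA6, none called in the main fit. The ITGAV share was 10.02% ± 1.67, 19.9% ± 1.66 and 16.7% ± 3.37. ITGA5 and ITGAV thus held a larger part of the alpha reads in every knockdown library than in any EV library, and ITGA3 a smaller part in every construct 86 library. Construct 86 replicate 1 stood apart within its group, with ITGA6 at 26.7% where replicates 2 and 3 were at 13.1% and 9.99%.

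Among the 4 beta members the share of ITGB5 dropped from 37.8% ± 3.14 in EV to 8.63% ± 1.52 with construct 86. It was 21.7% ± 3.78 with construct 87, where its level was not lower than in EV (log2 0.37). ITGB8 went from 15.4% ± 3.86 to 24.8% ± 1.87 and 41.0% ± 5.67. ITGB3 held 2.58% ± 1.19 in EV, 18.6% ± 5.73 with construct 86 and 2.77% ± 0.40 with construct 87. ITGB1 stayed the first or second beta chain, at 44.3% ± 2.85, 48.0% ± 3.37 and 34.5% ± 2.73. The denominator matters for ITGB1 and ITGB5: among all beta chains above 0, not only the 4 members, the share of ITGB1 differed from EV by 13.004 percentage points with construct 86 (3.70 among the members) and by -0.45 with construct 87 (-9.77), and that of ITGB5 by -18.8 (-29.2) and -7.57 (-16.1). With ITGB1 set aside, ITGB3, ITGB5 and ITGB8 thus had a different make-up in each group. Among these, ITGB5 led in EV, ITGB8 and ITGB3 took most of the reads with construct 86, and ITGB8 with construct 87. ITGB1 itself held the largest beta share in EV and with construct 86. In 7 of the 10 chains (ITGAV, ITGA2, ITGA3, ITGA5, ITGB3, ITGB5 and ITGB8) the shares with construct 86 did not overlap EV. For each the exact permutation test gave p = 0.1 (two-sided), the smallest that 3 against 3 libraries can give, which cannot pass 0.05. These 7 are not separate observations, because a larger share of any chain leaves less for the rest of its set. The levels of ITGA2 and ITGA3 with construct 86 overlapped EV and were not called (log2 0.81 and 0.26). No background from all genes stands beside this count.

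**Figure D3:**
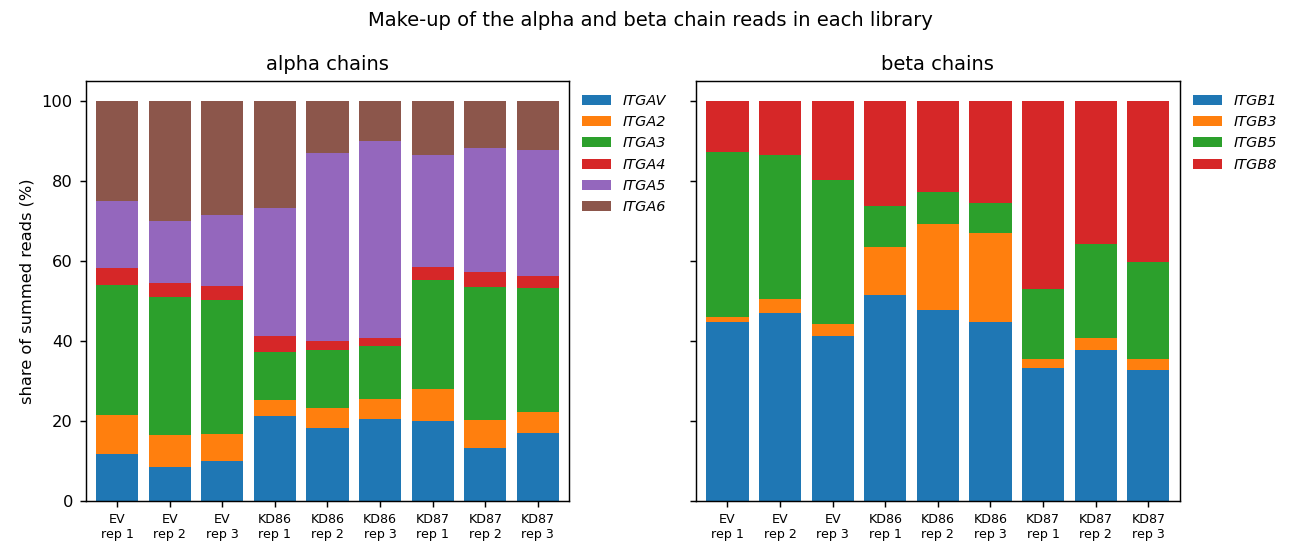
Share of each chain in the summed reads of the 6 alpha members (left) and the 4 beta members (right), 1 bar per library adding to 100%. ITGA5 (purple) is at 15.6% to 17.7% in EV and at 32.2% to 49.3% with construct 86, and ITGB5 (green, right) is at 35.9% to 41.4% in EV and at 7.48% to 10.4% with construct 86.

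Transcript length moved with the groups across all genes, and integrin chains have long transcripts. Of 13770 tested genes with a length in GENCODE v29, the shortest quintile had a median log2 change of -0.48 with construct 86 and the longest quintile 0.39, and with construct 87 these medians were -0.23 and 0.21. The longest transcripts of the members span 3784 (ITGB1) to 8751 bases (ITGB8), 1 in quintile 3, 6 in quintile 4 and 3 in the longest. In quintile 4 23.6% of genes were called higher with construct 86 and 7.19% with construct 87, and in the longest 28.4% and 7.63%. The difference between the longest and shortest quintiles also varied among libraries: EV replicate 2 was at 0.37 while EV replicates 1 and 3 were at -0.87 and -0.79, construct 86 lay between 0.19 and 0.75, and construct 87 between -0.42 and 0.30. With the trend in length removed from each library, 7 members were called with construct 86, as before, and 4 with construct 87, where ITGB1 was added (adjusted p = 0.0345); of all genes 37.6% and 15.1% were then called.

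**Figure D4:**
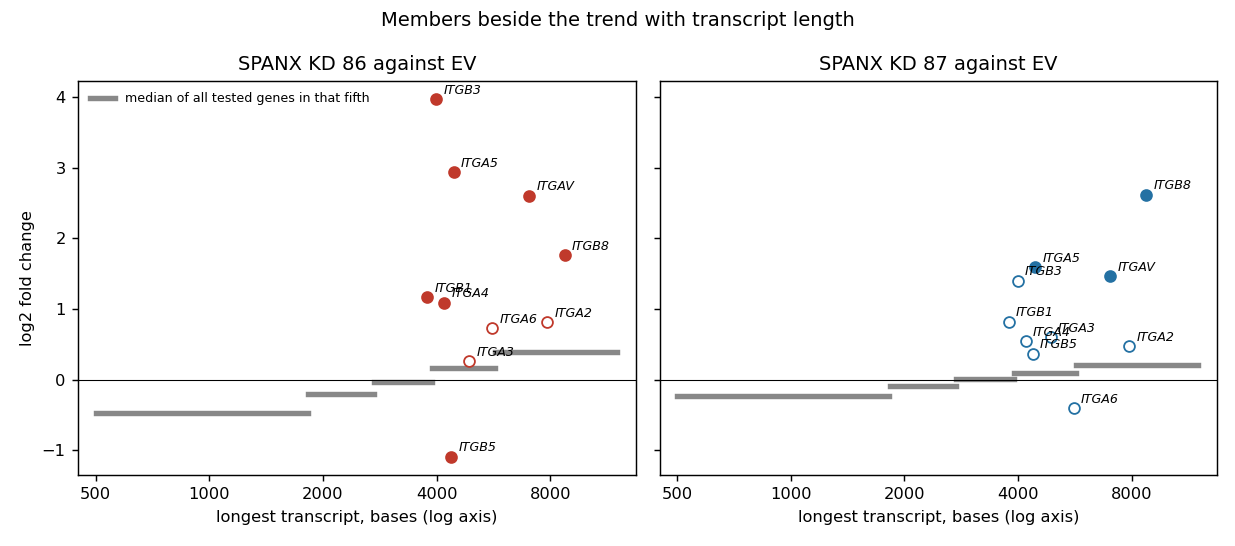
Log2 fold change of the 10 members against the length of their longest transcript (log axis), beside the median of all tested genes in each quintile of length (grey bars; the bars of the shortest and longest quintiles are cut off at the ends of the axis). ITGB3, ITGA5 and ITGAV stand at 3.97, 2.93 and 2.60 with construct 86, where the grey medians reach 0.39.

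Other genes of the integrin pathway were read from 7 lists, whose counts stand beside 18.0% of all tested genes called higher and 17.6% lower with construct 86, and 5.91% and 4.43% with construct 87. With the replicate block these shares were 27.0% and 28.3%, and 16.1% and 14.8%. Of 16 other integrin chains, 9 were tested. With construct 86 4 rose and 2 fell, and with construct 87 0 were called by limma (4 higher and 2 lower with the replicate block). ITGA1, a collagen receptor chain, rose from 821 normalised reads in EV to 3029 with construct 86 (3.69-fold, limma adjusted p = 0.000241). It stood at 583 with construct 87 (log2 -0.48, adjusted p = 0.183, and 0.0460 with the replicate block), 5.15-fold below construct 86 (adjusted p = 0.00014). ITGA7, a laminin receptor chain of muscle, and ITGA9 rose 3.81-fold and 5.53-fold with construct 86 (adjusted p = 0.00386 and 0.00427; for ITGA9, a low gene, log2 2.47 became 1.80 with a pseudocount of 10), and ITGAX, a leukocyte chain, 3.05-fold from 37.8 normalised reads (adjusted p = 0.00294). The chains that fell with construct 86 were ITGB2 and ITGB7 (adjusted p = 0.0106 and 0.00932), which like ITGAX belong to leukocytes and averaged 21.5 and 195 normalised reads in EV; ITGB2 also stands in the blood marker list. ITGB4, the partner of ITGA6, was at 2607 normalised reads in EV, 1099 with construct 86 and 1218 with construct 87, differences that were not called (adjusted p = 0.152 and 0.345).

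Of the matrix and cell surface ligands of integrins, 24 of 39 tested rose and 1 fell with construct 86, with a median log2 change of 1.44. The list shares COL1A1, COL1A2 and COL3A1 with the fibroblast markers and VWF with the endothelial ones. With construct 87 6 rose and 2 fell at a median of 0.53, and 19 rose and 5 fell with the replicate block. Tested directly, 2 of the 39 were higher and 11 lower with construct 87 than with construct 86, beside 12.7% and 12.9% of all genes. The genes named next were ranked by the mean of both constructs, which favours genes that moved the same way with each. MFGE8, an RGD protein bound by ITGAV receptors, rose 5.76-fold and 2.58-fold with constructs 86 and 87 (limma adjusted p = 2.8e-05 and 0.00242). COL4A1, a basement membrane collagen, went up by 4.55-fold and 3.36-fold (adjusted p = 0.000479 and 0.00647). Tenascin C (TNC) and the laminin chain LAMA4 rose 7.81-fold and 5.14-fold with construct 86 (adjusted p = 0.0011 and 0.00108). Their rises with construct 87 (log2 1.83 and 1.38, adjusted p = 0.0322 and 0.0395) were lost without EV replicate 1 (adjusted p = 0.133 and 0.151), EV replicate 3 (0.0883 and 0.101), construct 87 replicate 1 (0.142 and 0.175) or construct 87 replicate 2 (0.108 and 0.122), and that of LAMA4 also without construct 86 replicate 1 (0.0557) or 3 (0.0535).

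Of 23 tested activators and adaptors of the beta tail, 4 rose and 2 fell with construct 86 and 1 fell with construct 87, at medians of 0.14 and 0.15, so that the share called higher or lower with construct 86 was no greater than over all genes. CIB1, a calcium-binding protein that binds integrin tails, fell 2.53-fold with construct 86 (limma adjusted p = 0.00195). RAP1A, the GTPase that switches integrins on through talin, rose 1.70-fold with construct 86 (adjusted p = 0.0280), a call lost in 4 of the 6 fits that left out an EV or construct 86 library (adjusted p up to 0.0902 without construct 86 replicate 1) and with the length trend removed (0.175). Among 47 focal adhesion scaffold and signalling genes 17 rose and 6 fell with construct 86, and 4 rose and 2 fell with construct 87. With constructs 86 and 87 the adaptor NEDD9 rose 4.85-fold and 3.70-fold (limma adjusted p = 7.1e-05 and 0.00111). The kinase PAK2 fell 6.48-fold with construct 86 (adjusted p = 9.6e-05) and was at 1148 normalised reads with construct 87 beside 1516 in EV (adjusted p = 0.400), and FYN, a Src family kinase, rose 2.90-fold with construct 86 (adjusted p = 0.000233).

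Of 32 tested trafficking genes 10 rose and 4 fell with construct 86 and 3 rose with construct 87, at medians of 0.13 and 0.17. RASA1, which binds recycling integrin alpha chains, rose 1.91-fold and 3.86-fold with constructs 86 and 87 (limma adjusted p = 0.0145 and 0.00241). The call with construct 86 was lost without EV replicate 1 (adjusted p = 0.0594) or construct 86 replicate 2 (0.062). The endocytic adaptors NUMB and DAB2 rose 2.58-fold and 2.68-fold with construct 86 (adjusted p = 0.000662 and 0.00187). Of 27 membrane partners 16 rose and 0 fell with construct 86 (CSPG4 and PDGFRB of this list are also melanoma and fibroblast markers), and 5 rose and 1 fell with construct 87. The tetraspanin CD82 rose 14.8-fold with construct 86 (adjusted p = 0.000129) and differed 9.79-fold between the constructs (adjusted p = 0.000429). SDC4, a heparan sulfate co-receptor at focal adhesions, rose 6.21-fold with construct 87 (adjusted p = 0.00105). The VEGF receptor KDR rose 15.3-fold and 8.54-fold with constructs 86 and 87 (adjusted p = 0.000453 and 0.0065), the latter log2 value going from 3.09 to 3.69 without construct 87 replicate 3. Of 17 maturation genes, which fold, trim and glycosylate the chains, 11 rose and 0 fell with construct 86 and 1 rose with construct 87. The latter was B4GALT1, which rose 1.75-fold and 1.97-fold with constructs 86 and 87 (adjusted p = 0.00519 and 0.00804). ST6GAL1, which adds sialic acid to integrin chains, rose 7.18-fold with construct 86 (adjusted p = 0.000105) and was not called with construct 87 (0.458). FURIN, the protease that cleaves several alpha chains, rose 3.30-fold with construct 86 (adjusted p = 0.00108).

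Single libraries moved several of these list counts by over 1.5 times, and with them the share of all genes called, which ran from 22.1% to 43.5% with construct 86 and from 2.67% to 18.5% with construct 87. With construct 86, the adaptors went from 6 calls to 3 without EV replicate 1 and to 10 without EV replicate 2, and trafficking from 14 to 8 without EV replicate 1 and to 7 without construct 86 replicate 2. Without that last library the membrane partners went from 16 calls to 9 and the maturation genes from 11 to 7. With construct 87, the ligands went from 8 calls to 4 without EV replicate 1 or 3 and to 3 without construct 87 replicate 1 or 2. The focal adhesion genes went from 6 calls to 3 without EV replicate 1, construct 87 replicate 1 or construct 87 replicate 2, and to 11 without EV replicate 2. The membrane partners went from 6 to 3 without EV replicate 1, construct 87 replicate 1 or construct 87 replicate 2. Trafficking went from 3 to 5 without EV replicate 2 and to 1 without construct 87 replicate 1, and maturation from 1 to 2 without EV replicate 2 or construct 87 replicate 3. The replicate block gave 14 calls for the adaptors with construct 86. With construct 87 it gave 6 for the adaptors, 14 for focal adhesion, 12 for trafficking, 11 for the membrane partners and 4 for maturation.

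**Figure D5:**
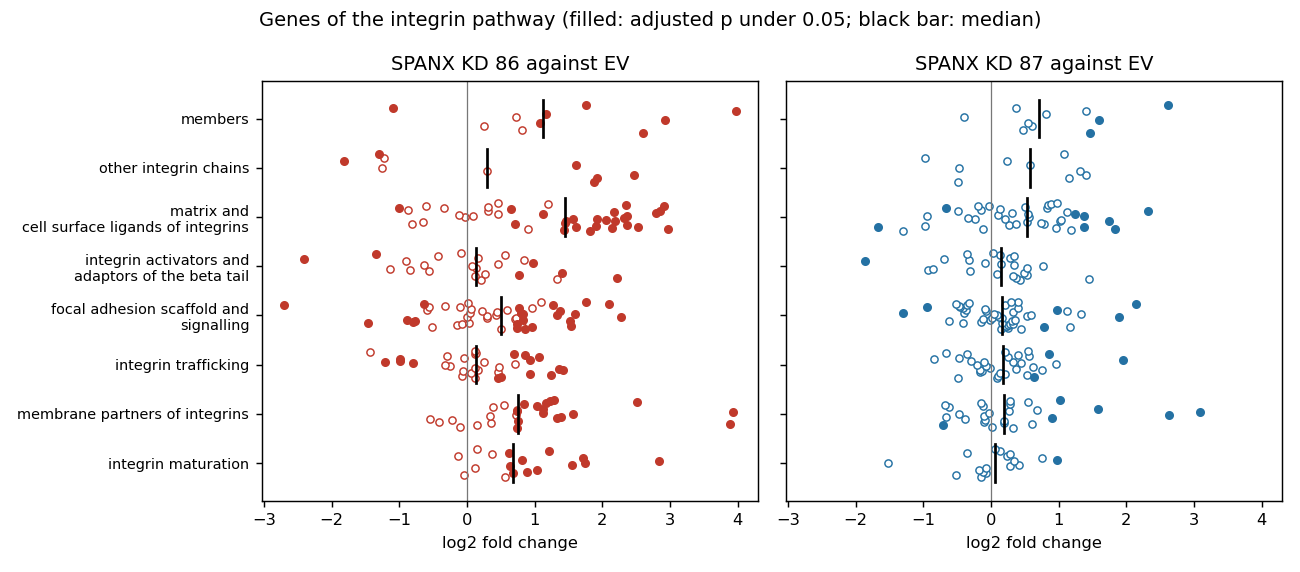
Log2 fold change of each tested gene of the 10 members and the 7 pathway lists, with construct 86 (left) and construct 87 (right) against EV. Filled points have an adjusted p under 0.05 and black bars mark medians, which for the ligands are 1.44 and 0.53.

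The genes whose log2 levels over the 9 libraries were most like those of ITGAV, among 10632 genes averaging at least 100 normalised reads, were, after an ID without a symbol that was passed over, PLCB1 (r = 0.991), PRICKLE2 (r = 0.991) and TIMP2 (r = 0.990). For ITGB1 they were TPP1 (r = 0.992), HIVEP2 (r = 0.992) and ZNF518B (r = 0.991). These are descriptions without a test, because the 9 points are 3 groups of libraries that share their knockdown and, by replicate number, part of their deviations.

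Markers of cell types moved with the groups as well. The summed level of the 12 tested melanoma and melanocyte markers was 9563 to 18375 normalised reads in EV, 36321 to 58338 with construct 86 and 18096 to 26955 with construct 87, with 4 of 12 called higher with construct 86 and 3 higher and 1 lower with construct 87. For 10 fibroblast markers, of which 7 were tested and THY1 and TCF21 were listed at 0, the sums were 441 to 506, 1165 to 1503 and 906 to 1124. The 3 tested of 8 keratinocyte and epithelial markers (KRT14, KRT8 and KRT18) were all lower with construct 86, with sums of 8095 to 11203 in EV, 1944 to 2377 with construct 86 and 6722 to 7481 with construct 87, and KRT5, KRT1, EPCAM, CDH1 and TP63 were listed at 0. Among blood markers 2 of 10 were tested, with sums of 175 to 282 in EV, 249 to 342 with construct 86 and 391.7 to 856 with construct 87: LYZ was called higher with construct 87 (adjusted p = 0.0377) and ITGB2 lower with construct 86, while 8 markers, PTPRC among them, were listed at 0. Among endothelial markers 1 of 6 was tested and CDH5, VWF and CLDN5 were listed at 0. The part of these markers in the integrin results was not tested.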

How the data were processed

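RNA of A375 melanoma cells was measured in 9 libraries. The deposited values are a score: a read count per gene that the authors scaled by 1 constant per library and rounded to whole numbers, judging from the spacing of the values in the files. Per the submitters' processing notes, STAR, featureCounts, Subread and edgeR were used on hg19, with no versions given. Of 60420 IDs, 45742 are at 0 in all libraries; 400 have values above 0 in EV or construct 86 libraries but none with construct 87, and 453 the reverse, so a 0 can mean filtered. A test on raw counts was planned only if the files held them.

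The constant of each library was recovered, values were turned back into reads (11310656 to 15564093 per library) and rescaled with the TMM formula (trims of 30% and 5%, numpy 2.4.6). The 13825 genes above 0 in both of these sets were tested with limma 3.58.1 (R 4.3.3) on log2 of normalised reads plus 1, with a variance trend, 3 group coefficients and 6 residual degrees of freedom. P-values are two-sided. Folds on this scale understate changes of low genes. The fit was also run on simulated reads with independent noise in each library. Those reads held neither the pairing by replicate number nor the length trend of these data, so that run says nothing about them. Shares were compared by exact permutation tests (scipy 1.17.1).

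Replicate numbers paired the libraries: over 13819 genes, deviations from group means correlated with r of 0.215 to 0.722 for the 9 pairs of the same number and -0.644 to 0.14 for the 18 others. Results with the number as a block are given where they change a member's call. For the other named genes they are mostly not given. With construct 87, ITGA1 (lower) and ITGA7, RAP1A, DAB2 and FURIN (higher) were called with the block and not in the main fit (limma adjusted p = 0.0460, 0.00709, 0.0118, 0.0169 and 0.00856). So were SDC4 with construct 86 (higher, 0.00561) and ITGB1BP1 with both constructs (lower, 0.00484 and 0.00643), among others.

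Named genes are all members, SPANXC and SPANXD, the 4 genes of each list that ranked first by adjusted p when both constructs were averaged against EV, and the 3 most correlated with ITGAV and with ITGB1; ITGB2, ITGB4, ITGB7, LYZ and ITGB1P1 were added after their values were seen, and 1 gene that the rule names is not reported here. The members, lists and rules were chosen with earlier results of these data known. Alternatives changed the scaling, pseudocount, low-value filter, variance model, samples fitted, block, length trend and each library in turn.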

Additional observations from a re-analysis of the deposited data

Results flagged for a closer look

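The effects of the 2 constructs differed for 6 integrin chains in the direct limma contrast of construct 87 minus construct 86 (log2, 3 libraries each). ITGAV differed by -1.13 (adjusted p = 0.00313), ITGA5 by -1.34 (adjusted p = 0.0137), ITGA6 by -1.13 (adjusted p = 0.0375) and ITGB3 by -2.57 (adjusted p = 0.00425). ITGB5 differed by 1.46 (adjusted p = 0.000606) and ITGB8 by 0.85 (adjusted p = 0.0398). In all 6 the libraries of the constructs did not overlap. Of all tested genes, 25.6% were called in this comparison and 45.3% had libraries that did not overlap. The ITGA6 and ITGB8 calls were lost without the variance trend (limma adjusted p = 0.0508 and 0.0549). Each was also lost in 5 of the fits that left out a library, and that of ITGA5 in 2. ITGB5 was below EV with construct 86 and not called with construct 87, and ITGB8 was above EV with both.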

How the results depend on the processing

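The count of 7 members called with construct 86 ranged from 6 to 9 when single libraries were left out, that of 3 with construct 87 from 2 to 6 (6 without EV replicate 2), and that of 6 between constructs from 3 to 6 (3 without construct 86 replicate 2 or construct 87 replicate 1). With the replicate block, 7 members were called with construct 87, and 7 also with values as deposited or with the length trend removed together with the replicate block (both added after seeing the data), while 31.0% to 34.9% of all genes were called, against 10.3%. The block alone changed no member's call beyond those named in the report. Counting all chains above 0 gave share differences of -17.6 percentage points for ITGA3, 13.004 for ITGB1 and -18.8 for ITGB5 with construct 86, and of -0.45 for ITGB1 and -7.57 for ITGB5 with construct 87. Without EV replicate 1 the ITGA3 change with construct 86 was -0.0057 and without EV replicate 2 it was 0.58. Between constructs ITGB1BP1 went from -0.10 (-0.26 to 0.12 over the libraries left out) to 0.0333 with the length trend removed, with or without the block, to 0.12 without construct 86 replicate 1 and to 0.0037 without construct 87 replicate 2, and was not called under any of these; the cause was not tested. The filter on at least 10 normalised reads in 3 libraries kept all 13825 genes. Leaving out a library also leaves fewer samples. Among the members depth limits ITGB3 most, with 60.3 normalised reads in its lowest library.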
